A study of Mus musculus with 4 samples.

Results

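Blood stem cells and the cells that line blood vessels share part of their gene expression, and 10 such genes were followed here through the stem and progenitor cells of the mouse fetal liver. They were chosen by name from the 32285 genes measured. Tie1 and Tek encode receptors of the angiopoietin pathway, and Kdr encodes the main signalling receptor for VEGF on vessels. Esam, Pecam1 (CD31), Cdh5 (VE-cadherin) and Emcn (endomucin) encode surface and junction proteins of the vessel lining. Egfl7 encodes a secreted protein of vessel cells that lies in the matrix. Col4a1 and Col4a2 encode the 2 chains that assemble into the common form of collagen IV, the scaffold of basement membranes.

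Haematopoietic stem cells (HSCs) arise in the embryo from haemogenic endothelium, a vessel lining that turns to making blood, and then expand in the fetal liver. Several vessel genes stay on in stem cells and are lost as cells mature; antibodies to ESAM, CD31, endomucin and TIE2 (the product of Tek) have been used to mark or enrich stem cells. Angiopoietin binding to TIE2 is known for its role in vessel maturation and in the quiescence of adult HSCs, while VE-cadherin marks HSCs of the embryo for a limited time after they emerge.

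The cells were LSK cells, sorted as negative for lineage markers and positive for Sca1 and c-Kit (CD117), from livers at E17.5, a late day of gestation after bead enrichment for c-Kit. The WT library came from Bclaf1 f/f embryos, which carry floxed alleles with no Cre, and the KO library from Vav-Cre:Bclaf1 f/f embryos, in which Vav regulatory sequences drive Cre in blood cells; both libraries therefore share the floxed Bclaf1 background. Each was 1 pool of 10 embryos, 20000 sorted cells and 10000 loaded cells, so no difference between libraries has a replicate check, and any effect of the pool or the capture cannot be told apart from that of genotype. RNA and 6 surface proteins (CD150, CD48, CD34, CD201, CD117 and Sca1) were read in the same cells by CITE-seq, in which each antibody carries a barcode that is counted like RNA. Which part of Bclaf1 is floxed is not given in the sources used here. The 2 libraries held 5345 WT cells and 2676 KO cells, with medians of 22734 and 34187.5 UMIs (unique molecular identifiers, 1 per captured RNA molecule) per cell. Bclaf1 stood at 218 CPM (counts per 1000000 gene UMIs) in WT and 75.8 CPM in KO, in the direction of the labels. The libraries shared 5 cell barcodes.

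The positions of the genes and of their starts are those of the mouse assembly GRCm38.p6. Esam spans chr9:37528089-37538319, Pecam1 chr11:106654213-106715281, Emcn chr3:137341062-137431069, Cdh5 chr8:104101613-104144504 and Egfl7 chr2:26581083-26592682. Tie1 spans chr4:118471191-118489849, Tek chr4:94739086-94874976 and Kdr chr5:75932827-75979072. Col4a1 (chr8:11198423-11312889) and Col4a2 (chr8:11312805-11449287) lie head to head and are transcribed away from each other. The starts used for their RefSeq windows are 11312826 on the minus strand and 11312805 on the plus strand. From these starts the transcripts overlap over their first 22 bases. The Col4a1 span reaches further, to 11312889, so the overlap depends on the start used. This start region is shown because the levels of these members ran closest together across groups of cells. The windows run from 250 bases before to 50 bases after the start, 5′ to 3′ on the gene's own strand, and the capitals mark the 78 bases (chr8:11312777-11312854) that both windows contain, read from opposite strands.
Col4a1, chr8:11312777-11313076, minus strand: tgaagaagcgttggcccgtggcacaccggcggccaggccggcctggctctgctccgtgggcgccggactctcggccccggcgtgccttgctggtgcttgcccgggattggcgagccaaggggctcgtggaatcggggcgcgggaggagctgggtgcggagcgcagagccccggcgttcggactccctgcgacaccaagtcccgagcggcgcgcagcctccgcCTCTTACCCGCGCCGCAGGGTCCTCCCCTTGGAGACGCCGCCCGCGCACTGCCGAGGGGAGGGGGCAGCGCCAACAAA
Col4a2, chr8:11312555-11312854, plus strand: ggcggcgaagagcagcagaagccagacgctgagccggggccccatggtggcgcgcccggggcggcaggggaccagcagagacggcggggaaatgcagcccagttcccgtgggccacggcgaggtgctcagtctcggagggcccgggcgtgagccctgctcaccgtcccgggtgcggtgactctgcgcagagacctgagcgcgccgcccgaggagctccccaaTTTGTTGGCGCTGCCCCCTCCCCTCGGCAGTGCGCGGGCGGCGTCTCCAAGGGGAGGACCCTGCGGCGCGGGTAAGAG
In the shared stretch 73.1% of bases were G or C, against a median of 52.7% over all windows of this kind. The 2 receptors of the angiopoietin pathway are shown for contrast, because their RNA levels differed less between the stem cell gate and CD150-CD48+ cells than those of the collagen genes. In Tie1 the capitals mark AGGAAG, the core of ETS factor sites, in either orientation, and in Tek they mark AGATAA, a form of the GATA factor site. The start used for the Tek window, 94739289, lies inside the gene span given above.
Tie1, chr4:118489800-118490099, minus strand: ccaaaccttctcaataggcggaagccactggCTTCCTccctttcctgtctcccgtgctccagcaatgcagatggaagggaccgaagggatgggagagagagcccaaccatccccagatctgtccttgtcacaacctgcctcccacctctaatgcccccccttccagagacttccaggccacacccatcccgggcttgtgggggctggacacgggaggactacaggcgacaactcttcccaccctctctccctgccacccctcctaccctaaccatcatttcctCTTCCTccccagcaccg
Tek, chr4:94739039-94739338, plus strand: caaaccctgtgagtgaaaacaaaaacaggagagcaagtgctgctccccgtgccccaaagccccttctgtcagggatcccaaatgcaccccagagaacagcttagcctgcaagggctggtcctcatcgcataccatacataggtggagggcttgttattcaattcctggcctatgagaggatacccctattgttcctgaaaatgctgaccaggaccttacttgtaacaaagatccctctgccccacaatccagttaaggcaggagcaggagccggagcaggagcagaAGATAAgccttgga
RefSeq windows were at hand for 7 of the 10 genes, 9 windows in all, since Egfl7 has 3 starts. AGGAAG, searched on both strands, was in 4 of the 9 (44.4%), namely those of Tie1 and Emcn and 2 of Egfl7, against 35.4% of 32851 windows over all genes. AGATAA was in the Tek window alone (11.1% of the 9, against 11.2% overall), TATAAA was in none (13.6% overall), and none of these motifs overlaps another. These are matches of letters, not shown binding sites.

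Over all LSK cells the members fell into 3 ranges of abundance. These are tags from the 3′ end of each RNA and are not scaled by length, so they rank what was captured rather than the number of transcripts. Egfl7 stood far above the others, at 228.5 CPM in WT and 180.2 CPM in KO, from 32321 and 18809 UMIs. Emcn (19.2 and 14.6 CPM), Pecam1 (18.9 and 17.9), Col4a2 (12.98 and 9.84), Col4a1 (12.9 and 10.2), Esam (12.9 and 9.36) and Tie1 (9.79 and 8.91) formed the middle range, in the order WT then KO. Tek (4.53 and 4.32 CPM) and Kdr (1.95 and 1.51) were low. Cdh5 was nearly absent, at 0.467 CPM in WT (66 UMIs) and 0.412 in KO (43 UMIs). Exact Poisson and binomial intervals, given below in brackets at 95%, cover counting error only. They take no account of differences between embryos.

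To compare shares of cells at equal depth, each cell was thinned at random to 8000 UMIs. At that depth Egfl7 was detected in 74.3% of WT cells and 68.7% of KO cells. Emcn was detected in 16.5% and 13.3%, Pecam1 in 14.5% and 15.2%, and Esam in 11.6% and 9.01%. Cdh5 was detected in 0.374% of WT cells and 0.673% of KO cells. The first 7 members, with at least 5 CPM in the mean of both libraries, passed the limit used for counts of genes, as did 9229 genes in all; Tek, Kdr and Cdh5 did not, and their values are given without being counted.

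Whether any sorted cell came from the vessel lining was checked with 20 endothelial markers that are not among the 10 genes (among them Stab1, Stab2, Lyve1, Cldn5 and Flt4). In WT, 2 cells held 19 and 18 of the 20 and no UMI of Ptprc, the gene of the pan-blood marker CD45, while no other cell held over 8. In KO, 1 cell held 17 and no other over 6. All 3 lay in the CD150+CD48- gate. Over all WT cells, these vessel cells carried 25.8% of the Cdh5 UMIs and 17.0% of the Kdr UMIs. In KO the shares were 16.3% and 4.43%. Of the UMIs of any other member they carried at most 1.64% in either library. The values of Cdh5 and Kdr are therefore also given without them. Within the CD150+CD48- gate alone the shares of the vessel cells are larger for every member. Few markers at a time were common: 3 or more of the 20 were held by 939 WT and 545 KO cells, of which 818 and 512 had a Ptprc UMI. Summed over the 20 markers the level was 242 CPM in WT and 204 CPM in KO, 191 CPM of it in WT from Adgrl4, a receptor gene. Stromal cells were not seen, as 0 cells of either library held 3 or more of 11 stromal markers.

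Cells were placed in 4 gates by their CD150 and CD48 tags, since in this tissue CD150+CD48- LSK cells are richest in HSCs, CD150-CD48- cells hold multipotent progenitors, and CD48+ cells are mostly restricted progenitors. The gates held 517, 819, 730 and 3279 WT cells and 169, 500, 384 and 1623 KO cells, in the order CD150+CD48-, CD150-CD48-, CD150+CD48+ and CD150-CD48+. The RNA of the 2 tag genes followed them in WT, with Slamf1 (CD150) at 21.4 CPM in CD150+CD48- cells against 1.88 CPM in CD150-CD48+ cells, and Cd48 at 19.9 against 180 CPM. The CD48 tags did not form 2 clear peaks, so that limit was set to leave 25% of cells below it, and 5.54% of WT cells and 5.79% of KO cells lay within 10% of a limit. Cells of a cluster with HSC markers (Hlf, Mecom, Procr and others), called HSC-like, made up 69.6% of the WT gate CD150+CD48- and 64.5% of the KO gate, and 1.49% and 1.29% of CD150-CD48+ cells.

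The 2 collagen IV genes were the members with the steepest contrast among those counted. Col4a1 stood at 65.9 CPM [60.8, 71.3] in WT CD150+CD48- cells, 19.5 in CD150-CD48-, 15.2 in CD150+CD48+ and 5.44 in CD150-CD48+, and in KO at 58.2, 13.7, 12.1 and 5.28 CPM in the same order. Col4a2 gave 64.1 CPM [59.1, 69.4], 20.6, 15.4 and 5.42 in WT and 58.0, 13.1, 12.4 and 4.69 in KO. Both were thus highest in the stem cell gate and lowest in the CD150-CD48+ gate, with the remaining gates between. The log2 ratio of CD150+CD48- to CD150-CD48+ was 3.60 [3.43, 3.77] in WT and 3.46 [3.22, 3.70] in KO for Col4a1 and 3.56 and 3.63 for Col4a2. Among the 9229 genes ranked by this ratio, Col4a1 was number 5 in WT and 11 in KO, and Col4a2 was number 6 in both.

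Esam, whose product joins vessel cells at tight junctions, had 54.1 CPM [49.5, 59.1] in the WT stem cell gate, then 18.2, 17.9 and 6.07 CPM, and 43.3 [37.5, 49.9], 11.2, 13.1 and 5.21 CPM in KO. Its log2 ratio was 3.16 in WT and 3.06 in KO, number 16 of the 9229 in both libraries. The share of thinned CD150+CD48- cells with an Esam UMI was 35.8% in WT and 30.2% in KO, and for Col4a1 it was 40.0% and 36.7%. Lymphoid-like cells, a cluster that should lack both, had Esam in 0.704% and Col4a1 in 0.176% of thinned WT cells, and in 1.68% and 0.420% of KO cells. The median depth before thinning was 19115.5 UMIs in lymphoid-like WT cells and 14627.0 in HSC-like WT cells (26799.5 and 20399.0 in KO), and the shares in the stem cell gate lay far above this background.

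The angiopoietin receptors were also highest in the stem cell gate. Tie1, the receptor that does not bind angiopoietins by itself, had 29.2, 10.7, 14.1 and 6.36 CPM in WT and 28.4, 6.92, 11.8 and 7.11 CPM in KO. Tek had 15.5, 4.25, 7.97 and 2.46 CPM in WT and 17.6, 4.02, 8.40 and 2.14 CPM in KO. Unlike the collagen genes, both stood higher in CD150+CD48+ than in CD150-CD48- cells, in each library, and Tie1 in KO was about as low in CD150-CD48- as in CD150-CD48+ cells. Their log2 ratios of stem cell gate to CD150-CD48+ gate were 2.197 and 2.00 for Tie1 and 2.66 and 3.04 for Tek, in WT and KO.

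The remaining surface genes and Egfl7 were spread more evenly. Emcn had 30.8, 26.2, 15.9 and 17.6 CPM in WT and 31.3, 14.6, 9.54 and 14.97 in KO, a log2 ratio of 0.81 and 1.07 between the end gates. Pecam1 had 24.5, 16.3, 14.4 and 20.04 CPM in WT and 22.0, 12.9, 10.9 and 21.2 in KO, so its end gates differed little (log2 ratios of 0.29 and 0.06). Egfl7 ran the other way, with 171 CPM in the WT stem cell gate against 261 CPM in CD150-CD48+ cells, and 138 against 214 CPM in KO (log2 ratios of -0.61 and -0.63). The most abundant of the 10 vessel-shared genes was thus lower, not higher, in the stem cell gate.

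**Figure D1:**
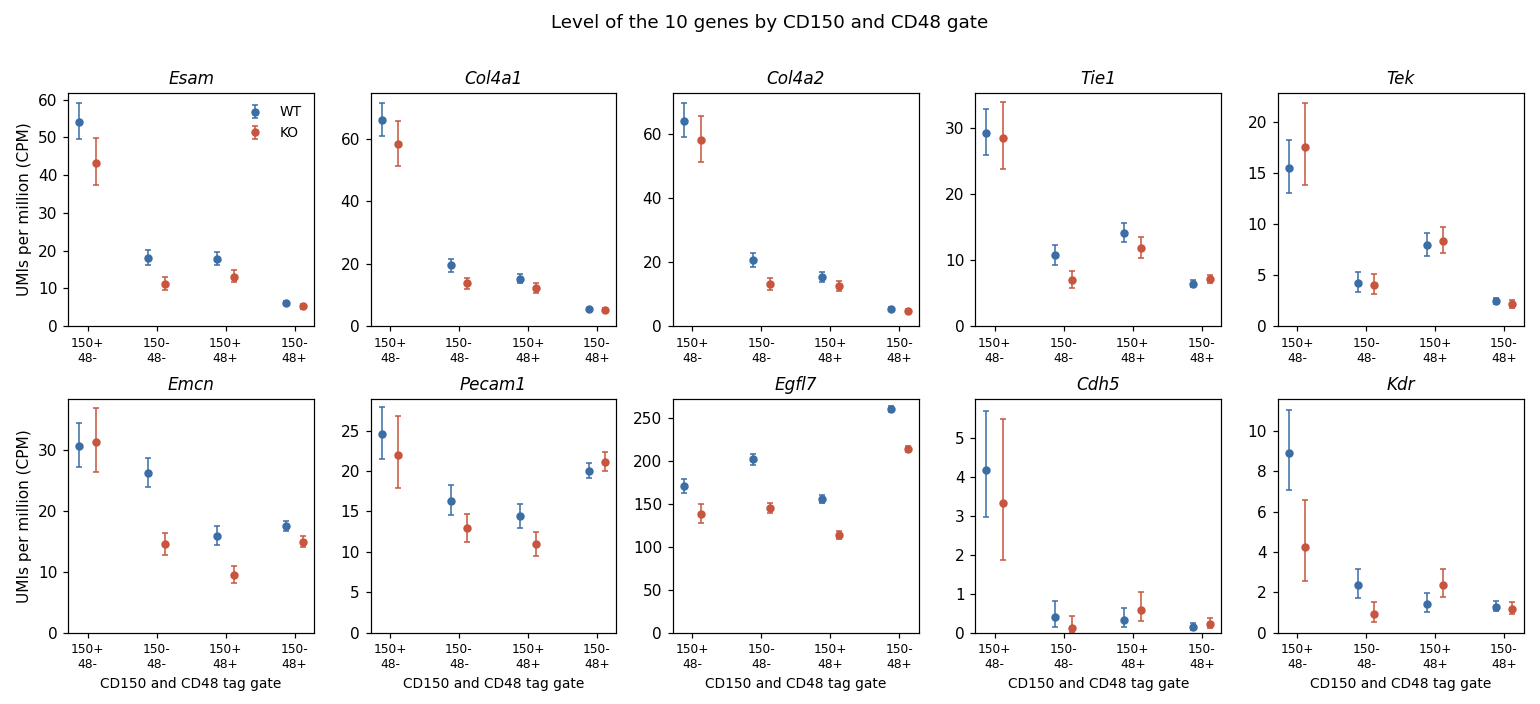
CPM of each member (axes from 0, 1 panel per gene) in the 4 gates, 1 point per library with exact Poisson 95% bars from counting error only. Col4a1, Col4a2, Esam, Tie1 and Tek are highest in CD150+CD48- cells of both libraries, while Egfl7 is highest in CD150-CD48+ cells.

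Counted with a rule of size, 5 of the 7 members were at least 1.5-fold higher in CD150+CD48- than in CD150-CD48+ cells in both libraries (Esam, Emcn, Tie1, Col4a1 and Col4a2), against 13.7% of all 9229 genes in WT and 13.5% in KO. Egfl7 was at least 1.5-fold lower in both, against 4.48% and 4.44% of genes. The median log2 ratio of the 7 was 2.197 in WT and 2.00 in KO, beside 0.15 and 0.14 over all genes.

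Cdh5 and Kdr need the vessel cells set aside before their gates are read. Cdh5 had 4.18 CPM in the WT stem cell gate and 0.135 in CD150-CD48+ cells, a log2 ratio of 4.95 that became 4.13 without the vessel cells, and in KO 3.33 and 0.223 CPM, or 3.90 and 2.997. Kdr had 8.90 and 1.29 CPM in WT and 4.22 and 1.20 in KO, with log2 ratios of 2.78 and 1.82 that became 1.58 and 1.16. Both genes stood higher in the stem cell gate without these cells as well, but by less. Empty WT droplets with 100 to 300 UMIs held Cdh5 at 4.75 CPM, above its level in the WT stem cell gate.

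Within the CD48- cells, the step from CD150- to CD150+ was also examined. Relative to CD150-CD48- cells, CD150+CD48- cells were higher by a log2 ratio of 1.57 in WT and 1.95 in KO for Esam and 1.76 and 2.09 for Col4a1, and for Emcn by 0.23 and 1.11. This counted 5 of 7 members at least 1.5-fold higher in WT (9.04% of all genes) and 6 of 7 in KO (18.8%). Esam, Col4a1 and Emcn, but not Egfl7, are nearly silent in erythroid-like cells. Such cells were 14.4% of the WT CD150-CD48- gate and 28.8% of the KO gate, against 3.09% and 6.51% of CD150+CD48- cells.

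Among HSC-like cells alone the same step was small. Esam was higher in the CD150+ cells by a log2 ratio of 0.47 in WT and 0.44 in KO, Col4a1 by 0.55 and 0.38, Col4a2 by 0.39 and 0.47, and Tie1 by 0.38 and 0.46. None of the 7 members was 1.5-fold higher (3.81% of all genes did in WT and 6.57% in KO). At least 1.5-fold lower were 2 members in WT, Egfl7 and Emcn, and 1 in KO, Egfl7, beside 2.63% and 5.08% of genes. Egfl7 stood at 195 CPM in CD150+ against 305 CPM in CD150- HSC-like cells in WT, and at 168 against 286 CPM in KO. Emcn was lower in WT, at 36.7 against 56.7 CPM (log2 ratio -0.63 [-0.91, -0.35]), but level in KO, at 49.5 against 50.3 CPM (-0.02). HSC-like cells without CD150 thus had the higher Egfl7, while the step in Col4a1 and Esam was smaller than over all cells of these gates.

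CD201 (the endothelial protein C receptor, encoded by Procr) is itself a vessel protein that marks HSCs. Cells of each library were split into 5 equal parts (quintiles) by their CD201 tags. From the lowest to the highest quintile the median tag count went from 3 to 55 in WT and from 14 to 133 in KO. Procr RNA went from 2.23 to 43.5 CPM in WT and from 2.68 to 21.6 CPM in KO. Along these quintiles, from lowest to highest, Col4a1 had 4.04, 4.82, 7.58, 11.5 and 39.4 CPM in WT and 4.07, 6.44, 8.58, 9.46 and 20.6 in KO. Esam had 6.12, 7.94, 8.18, 13.1 and 30.8 CPM in WT and 4.598, 6.95, 8.12, 9.29 and 16.3 in KO. Each was higher in every next quintile, though neighbours among the lower quintiles lay close, with the largest step into the highest quintile. That quintile was 50.1% HSC-like cells in WT but 32.0% in KO, where 17.8% of it was erythroid-like cells against 2.25% in WT.

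Tie1 and Tek differed little over the 3 lowest quintiles. Tie1 had 6.91, 5.81, 6.36, 11.2 and 19.5 CPM in WT and 7.16, 8.29, 7.38, 8.20 and 13.0 in KO. Tek went from 2.72 to 8.68 CPM in WT and from 3.14 to 6.52 in KO. Emcn was graded more evenly, from 12.7, 15.3, 16.1 and 20.5 to 32.6 CPM in WT and from 10.7, 12.8, 13.6 and 13.8 to 20.8 CPM in KO. The log2 ratio of highest to lowest quintile was 3.28 in WT and 2.34 in KO for Col4a1, 3.15 and 2.40 for Col4a2, 2.33 and 1.83 for Esam, 1.496 and 0.86 for Tie1, and 1.37 and 0.96 for Emcn. These 5 of the 7 passed 1.5-fold in both libraries, beside 9.17% of all genes in WT and 5.15% in KO. Kdr had a log2 ratio of 1.91 in WT and 0.10 in KO, or 1.18 and -0.19 without the vessel cells. Cdh5 had one of 3.52 in WT (2.81 without them), while the lowest KO quintile held 0 of its UMIs and the ratio was at least 2.61 against a floor of 3 UMIs in that quintile.

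Pecam1 and Egfl7 did not share this slope. Egfl7 had 227, 234, 219, 222 and 244 CPM along the WT quintiles and 191, 190, 177, 172 and 175 along the KO quintiles. Pecam1 had 18.4, 18.2, 17.0, 17.4 and 24.1 CPM in WT, where only the highest quintile stood out, and 21.9, 21.4, 17.3, 14.4 and 16.1 in KO. The log2 ratio of highest to lowest quintile was 0.39 [0.22, 0.57] in WT and -0.45 [-0.66, -0.23] in KO for Pecam1, and 0.10 [0.05, 0.16] and -0.13 [-0.20, -0.07] for Egfl7. Without the erythroid-like cells, and with quintiles set again, the KO ratios were 0.08 for Pecam1 and 0.19 for Egfl7, and those of Col4a1 and Esam were 2.84 and 2.34.

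**Figure D2:**
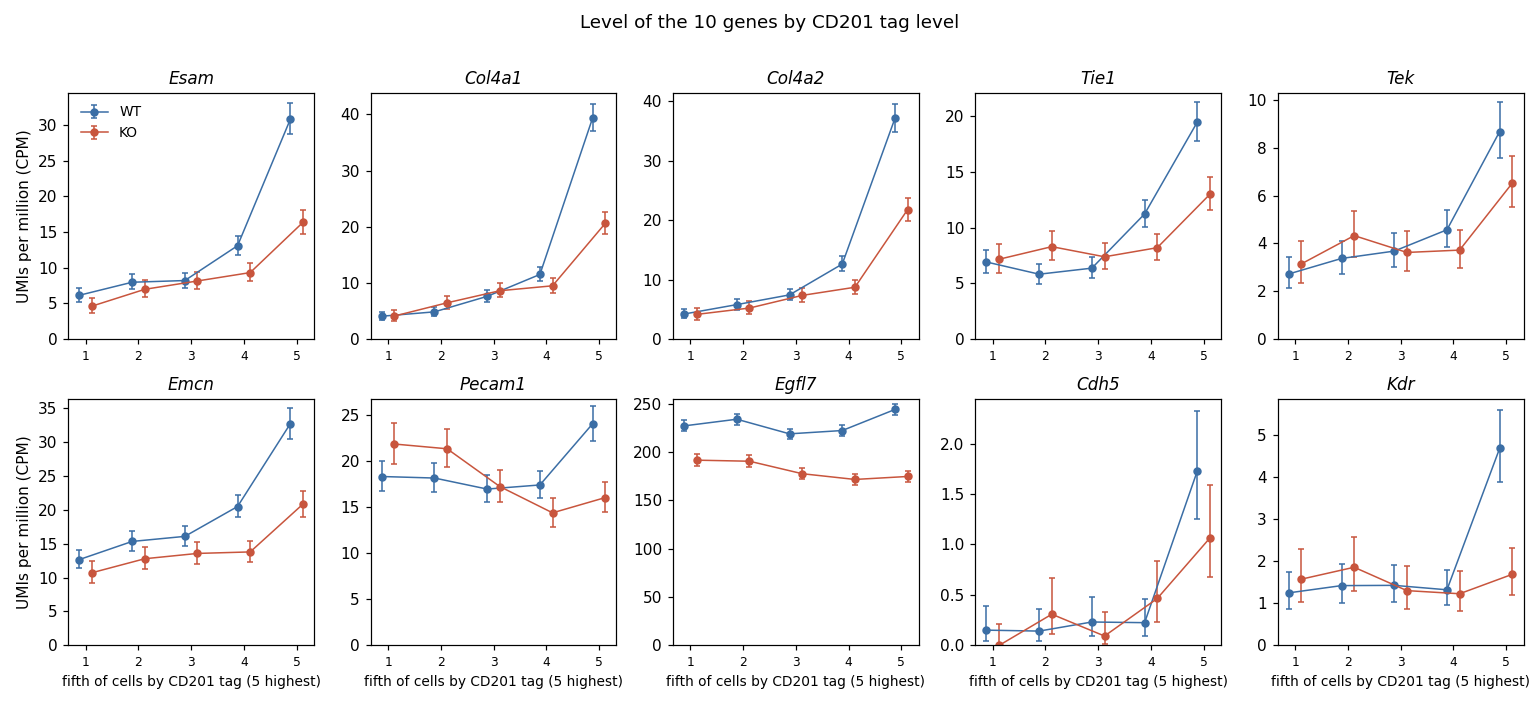
CPM of each member (axes from 0, 1 panel per gene) in 5 equal parts of each library ordered by CD201 tags, with exact Poisson 95% bars from counting error only. Col4a1, Col4a2 and Esam climb most into the highest part, and Egfl7 stays between 172 and 244 CPM.

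Inside the CD150+CD48- gate CD201 separated the members in another way. Col4a1 stood at 89.9 CPM in WT cells above the median CD201 of the gate and 46.3 CPM in those at or below it, and at 73.1 and 45.6 CPM in KO (log2 ratios of 0.96 and 0.68). Pecam1 (1.18 in WT and 0.74 in KO), Emcn (0.70 and 0.84), Egfl7 (0.63 and 0.55) and Col4a2 (0.67 and 0.67) were higher with CD201 too. Esam, among the steepest between gates, had log2 ratios of 0.10 and 0.25 here, and Tek 0.30 and 0.05. Pecam1 and Egfl7, level or lower in the stem cell gate as a whole, thus stood higher in its CD201-rich cells, while the Esam intervals of [-0.16, 0.35] in WT and [-0.17, 0.67] in KO included 0. The count at 1.5-fold or more was 5 of 7 in WT (8.46% of all genes) and 4 of 7 in KO (10.2%). All 3 vessel cells were CD201-rich cells of this gate, and without them Pecam1 had ratios of 1.05 [0.64, 1.47] in WT and 0.56 [-0.06, 1.19] in KO, Egfl7 0.60 and 0.54, and the count was 5 (8.3% of all genes) and 3 (10.2%).

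The other tags were compared between the highest and lowest 25% of cells. With Sca1 tags all 7 members were at least 1.5-fold higher in WT (13.7% of all genes) and 6 of 7 in KO (15.5%), with log2 ratios of 3.01 and 3.56 for Col4a1, 2.02 and 2.30 for Emcn, 1.85 and 2.66 for Esam, and 0.59 and 0.89 for Egfl7. Sca1 was the tag with which all members were higher, though Pecam1 reached only 0.45 in KO.

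CD34 divided the members into 2 groups. Esam (-1.80 in WT and -1.26 in KO), Col4a2 (-1.84 and -1.47) and Tek (-1.58 and -1.66) were lower in the cells with most CD34. Pecam1 (0.46 and 1.20) and Emcn (0.26 and 1.29) were higher. So was Egfl7, at 274 CPM in the WT cells with most CD34 and 139 CPM in those with least, and at 243 and 102 CPM in KO. By the rule of size 1 member was higher and 4 lower in WT, beside 6.64% and 5.29% of all genes, and 3 were higher and 3 lower in KO, beside 14.8% and 6.99%. With CD48 tags 5 members were lower in WT (8.08% of genes) and 3 in KO (6.09%). With CD117 tags 4 were lower in WT (5.47%) and 6 in KO (13.6%). With CD150 tags 4 were higher and 1 lower in WT (4.88% and 3.97%), and 4 higher and 2 lower in KO (5.69% and 7.71%).

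**Figure D3:**
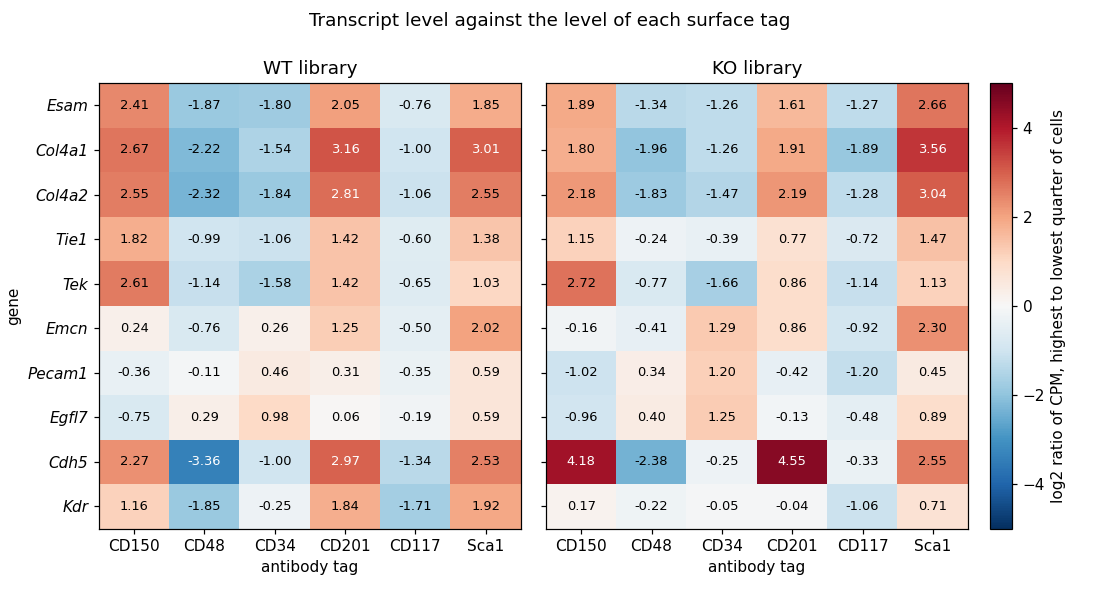
Log2 ratio of CPM of each member between the cells with the highest and the lowest 25% of each surface tag, 1 panel per library, with the ratio printed in each square. The Sca1 column is above 0 for all 10 members in both libraries, and the CD34 column is above 0 for Egfl7, Pecam1 and Emcn and below 0 for the others.

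Across clusters, named from markers with the 10 members kept out of the clustering genes, the collagen genes and Esam were set apart in HSC-like cells. Esam had 54.4 CPM in HSC-like WT cells, 15.8 in megakaryocyte-like, 1.22 in erythroid-like and 1.14 in lymphoid-like cells, and in KO 54.8, 10.6, 0.967 and 1.37 CPM. Col4a1 had 65.6, 12.6, 1.15 and 0.437 CPM in WT and 66.6, 10.7, 0.748 and 0.456 in KO. Tie1 and Tek were carried further into megakaryocyte-like cells, with Tie1 at 30.6 CPM in HSC-like and 12.6 in megakaryocyte-like WT cells (35.4 and 13.4 in KO) and Tek at 13.6 and 10.5 CPM (18.8 and 13.4 in KO).

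Pecam1, Emcn and Egfl7 extended to the lymphoid side. Pecam1 had 29.2 CPM in HSC-like and 29.1 in lymphoid-like WT cells, and 34.6 and 34.5 in KO, which do not differ beyond counting error. Emcn had 44.8 and 16.6 CPM in WT and 47.98 and 14.6 in KO. Egfl7 was highest in lymphoid-like cells, at 365.7 CPM in WT and 328 in KO, above the HSC-like cells at 238 and 217 CPM. Erythroid-like cells had the lowest Pecam1 (2.10 and 1.54 CPM) and Emcn (1.89 and 0.836 CPM) of the clusters given here, and still 119 and 96.8 CPM of Egfl7. Empty droplets with 100 to 300 UMIs held Egfl7 at 302 CPM in WT and 180 CPM in KO. How much of the Egfl7 in erythroid-like cells was free RNA was not tested. The cluster names rest on a rule set after the clusters were seen, and 3078 WT cells and 1438 KO cells stayed unnamed.

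**Figure D4:**
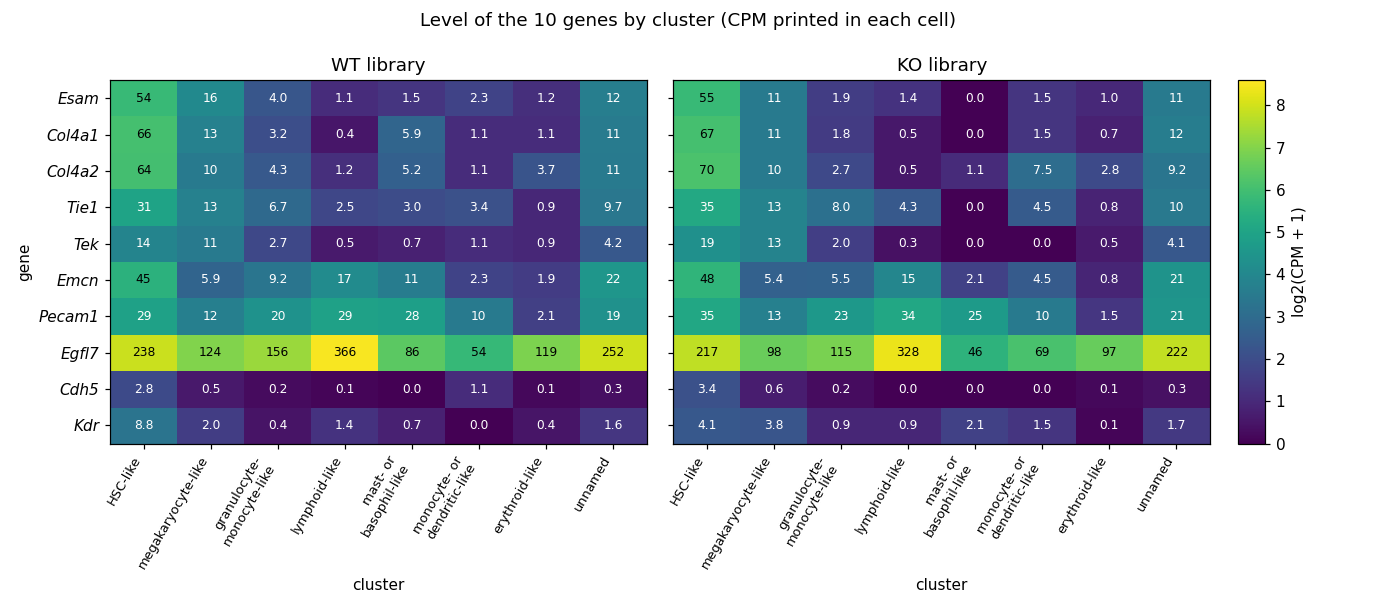
Level of each member in each cluster of each library, coloured by log2(CPM + 1), with the CPM printed in each square. Esam, Col4a1 and Col4a2 are highest in the HSC-like column, and Egfl7 is highest in the lymphoid-like column.

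Some single cells of the stem cell gate carried several members at once. Leaving out Egfl7, thinned CD150+CD48- cells held on average 2.00 of the 9 other members in WT and 1.80 in KO. The mean in CD150-CD48+ cells was 0.494 and 0.516. At least 1 was held by 87.8% of the WT and 76.9% of the KO stem gate cells. Exactly 1 was held by 23.8% and 23.1% of them, and 4 or more by 10.4% and 11.2%. Col4a2 was detected in 49.8% of the 207 WT cells of that gate with a Col4a1 UMI and in 38.4% of those without, and in KO in 54.8% of 62 against 29.0%. Some other pairs in WT ran in the same direction, though the WT intervals overlapped for these and for the collagen pair. Col4a2 was detected in 48.6% of cells with an Esam UMI and 39.8% of those without (47.1% and 34.7% in KO). Egfl7 was detected in 76.0% of cells with a Pecam1 UMI and 65.0% of those without. In KO the Egfl7 shares ran the other way, at 55.2% and 61.4%. Further pairs in WT did not run in the first direction, with Col4a1 detected in 37.8% of cells with an Esam UMI and 41.3% of those without. Likewise, Col4a2 was detected in 41.3% of cells with a Tie1 UMI and 43.4% of those without. Over 23 groups of cells (library, gate and CD201 tertile) Pearson's r of log2(CPM + 1) was 0.99 between Col4a1 and Col4a2, 0.97 between Esam and Col4a2 and 0.91 between Esam and Tie1. It was 0.71 between Pecam1 and Egfl7 and -0.50 between Egfl7 and Tek. These groups come from 2 libraries and share depth and free RNA, so r is a description. Of the members only Egfl7 reached 20 CPM, the level set for naming like genes, and the 3 most like it were E030030I06Rik (0.94), Tmem173 (0.93), which encodes the DNA sensor adaptor STING, and Acot1 (0.92).

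Genotypes were compared by the ratio of KO to WT. Over all LSK cells the log2 ratio was -0.46 [-0.57, -0.35] for Esam, -0.40 for Col4a2, -0.40 for Emcn, -0.34 for Col4a1 and -0.34 for Egfl7. Tie1 (-0.14), Pecam1 (-0.08) and Tek (-0.07) were closer to level. By a rule of size, 5 of the 7 members were at least 20% lower in KO, beside 2.57% of all genes, and 0 were at least 25% higher, beside 7.47%; the median over all genes was 0.07. The cell make-up differed as well: HSC-like cells were 14.1% of WT and 9.30% of KO cells, and erythroid-like cells 4.70% and 11.5%. Without the erythroid-like cells 0 of the 7 were 20% lower, beside 1.01% of all genes.

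The count of lower members differed between the gates. In CD150+CD48- cells 0 of 7 members were at least 20% lower in KO (5.32% of genes were), and in CD150-CD48+ cells again 0 (1.19%). In the stem cell gate the log2 ratio was -0.32 for Esam, -0.31 for Egfl7, -0.18 for Col4a1, 0.03 for Emcn and 0.18 for Tek. Esam and Egfl7 thus fell just short of the 20% limit, so a count of 0 here does not mean that no member was lower. That count depends on how the tags are scaled: when they were taken as a share of a cell's tags, or after a centred log ratio, 7 of 7 were lower (15.5% and 13.3% of genes), with Col4a1 at -0.66 and -0.54 and Esam at -0.72 and -0.54. In CD150-CD48- cells 7 of 7 were lower (12.4% of genes), led by Emcn (-0.85), Esam (-0.69), Col4a2 (-0.66) and Tie1 (-0.63). With the gates kept and the erythroid-like cells left out of that gate, 0 of 7 were (4.71%), with Col4a1 at 0.04, Esam at -0.18, Emcn at -0.32 and Pecam1 at 0.21. In CD150+CD48+ cells 5 of 7 were lower (8.79%), a gate in which erythroid-like cells were 10.7% in WT and 24.7% in KO. With the gates kept and those cells left out, 2 of 7 were (4.07%), namely Egfl7 (-0.39) and Emcn (-0.36).

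**Figure D5:**
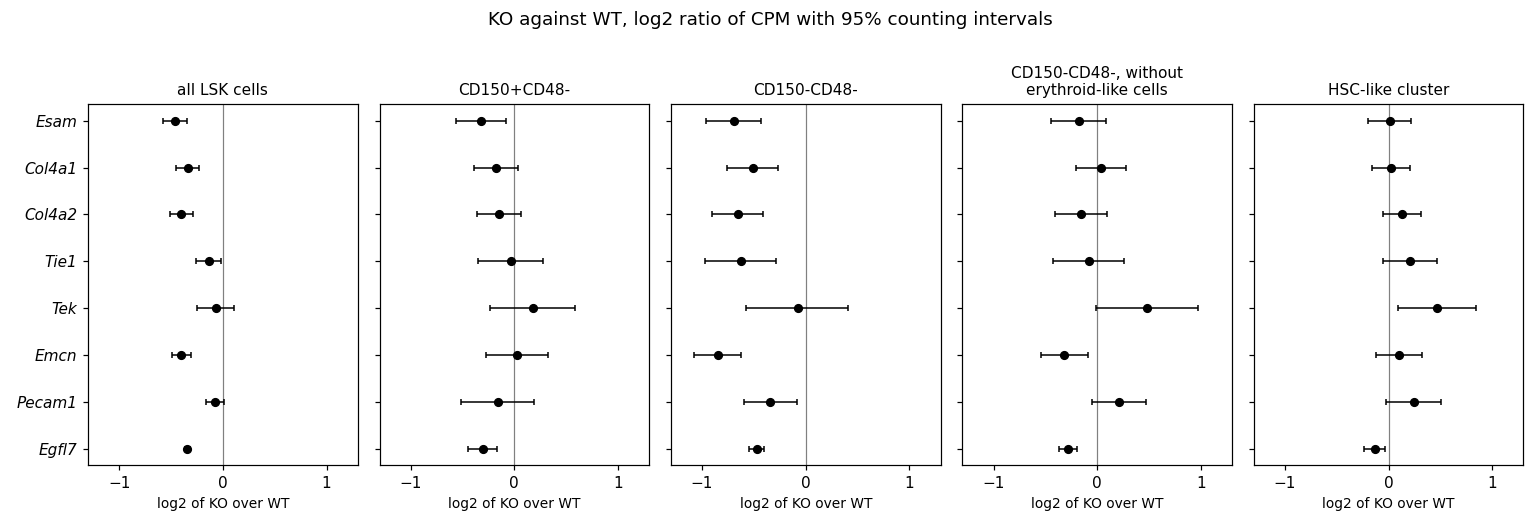
Log2 ratio of KO to WT for 8 members (all but Cdh5 and Kdr) over all cells, in CD150+CD48- cells, in CD150-CD48- cells with and without erythroid-like cells, and in HSC-like cells, with exact 95% intervals from counting error only. In HSC-like cells Esam, Col4a1, Col4a2 and Emcn lie near 0 and Egfl7 lies below it.

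Within HSC-like cells most members were level or higher in KO. The log2 ratio was 0.01 for Esam, 0.02 for Col4a1, 0.13 for Col4a2, 0.10 for Emcn, 0.21 for Tie1 and 0.24 for Pecam1. Tek was higher, at 18.8 against 13.6 CPM (log2 ratio 0.47 [0.09, 0.84]). Egfl7 was lower, at 217 against 238 CPM (-0.14 [-0.24, -0.04]), and it was also lower in KO in lymphoid-like (-0.16), erythroid-like (-0.30), megakaryocyte-like (-0.34) and granulocyte-monocyte-like cells (-0.44), in mast- or basophil-like cells (-0.91 [-1.45, -0.39]) and in unnamed cells (-0.18). In monocyte-like cells, 40 in WT and 20 in KO, its ratio was 0.35 [-0.27, 0.97]. Of the 7 counted members 0 were 20% lower or 25% higher in HSC-like cells, where 3.4% of all 9229 genes were lower and 18.2% higher. Kdr was lower, at 4.14 against 8.84 CPM (-1.09 [-1.83, -0.42]), and without the vessel cells at 2.83 against 4.86 CPM (-0.78 [-1.71, 0.06]), an interval that includes 0. In the stem cell gate its ratio was -1.08 [-1.88, -0.34], and -0.53 without those cells. The latter rests on few cells: with the vessel cells included, Kdr had a UMI in 35 WT and 12 KO cells of this gate.

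In the highest CD201 quintile 7 of 7 members were at least 20% lower in KO, as were 14.4% of genes, with log2 ratios of -0.93 for Col4a1, -0.91 for Esam and -0.48 for Egfl7. The share of HSC-like cells in it was 32.0% in KO and 50.1% in WT. Procr RNA in it stood at 21.6 CPM in KO and 43.5 CPM in WT, so the quintile need not hold like cells in the 2 libraries. A lower summed level over mixed cells can come from fewer cells that express a gene or from less RNA per cell, which sums cannot tell apart. The part of the cell make-up in this quintile was not tested further. Free RNA was also present: empty droplets with 100 to 300 UMIs held Esam at 17.1 CPM in WT and 7.27 in KO, and Emcn at 23.5 and 12.8 CPM, beside 12.9 and 9.36 CPM of Esam and 19.2 and 14.6 CPM of Emcn in cells. Egfl7 stood at 302 CPM in these droplets in WT and 180 CPM in KO, beside 228.5 and 180.2 CPM in cells. Haemoglobin in lymphoid-like cells gave an upper bound of 25.9% in WT and 22.3% in KO for the share of free RNA in a cell. That share was subtracted with the profile of droplets with 10 to 100 UMIs, rather than the larger droplets above. In this profile Esam rested on 28 UMIs in WT (18.96 CPM) and 2 in KO (4.28 CPM [0.52, 15.5]). Subtraction left 2 of the 7 members 20% lower in KO over all cells (6.65% of genes), with Esam at a log2 ratio of 0.0086. The Esam ratio after subtraction thus depends on very few KO droplet UMIs.

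Other vessel-shared genes, 72 in a list of 4 kinds that does not hold the members, served as a frame for the gates. Over all 9229 genes, 13.7% were at least 1.5-fold higher in CD150+CD48- than CD150-CD48+ cells in WT and 4.48% lower. In KO these shares were 13.5% and 4.44%. Of 8 receptors and ligands with at least 5 CPM, 4 were at least 1.5-fold higher in CD150+CD48- than CD150-CD48+ cells in WT and 1 lower (4 and 2 in KO). Angpt1, the ligand of TIE2, was at 203 against 77.0 CPM in WT (log2 ratio 1.40, and 1.37 in KO), and S1pr1 at 1.16 and 0.95, whereas Notch1 (-1.01 and -1.33) and Cxcr4 (-0.35 and -1.13) were lower. Tek and Angpt1, receptor and ligand, thus both stood higher in the stem cell gate. Of 9 junction and surface genes 4 were higher and 1 lower in both libraries, from Procr (3.01 and 2.93) and F11r (2.27 and 2.29), a tight junction gene, to Cd93 (-0.28 and -0.14) and Cd34 (-1.16 and -1.28).

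Of 19 other genes of the basement membrane and of collagen IV handling, 6 had at least 5 CPM, and 1 of these was at least 1.5-fold higher in the stem cell gate and 0 lower in both libraries. It was Itga6, an integrin chain that binds laminin (0.75 in WT and 0.64 in KO), while Lamc1 (0.43 and 0.46), Plod3 (-0.06 and -0.08) and P4hb (-0.23 and -0.33) stayed within 1.5-fold. Of 15 transcription factors shared by the vessel and blood lineages, 8 were higher in WT and 9 in KO and 0 lower. Mecom (3.09 and 3.11), a stem cell factor, and Gata2 (1.37 and 0.75) led, and Lyl1 (-0.02 and -0.16) and Runx1 (-0.26 and -0.37) were lowest. Between KO and WT over all cells, the 4 kinds had 1 higher and 0 lower, 0 and 2, 0 and 0, and 1 and 1, by that rule of 20% lower or 25% higher. Over all genes 7.47% were higher and 2.57% lower.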

How the data were processed

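The files deposited by the authors are unfiltered matrices of raw UMI counts for 32285 genes and 6 antibody tags, written by Cell Ranger according to their headers (version 4.0.6 and build mm10 per the submitters' processing notes, which also name Seurat and DESeq without steps). The WT and KO matrices listed 2395014 and 2456731 barcodes; cells needed 8178 UMIs in WT and 9992 in KO (10% of the 99th percentile among the 6000 largest barcodes, and never under 1000), along with 500 genes and no more than 10% of UMIs from mitochondrial genes. These cells held 141419013 and 104358292 gene UMIs, 90.9% and 89.1% of all. Scrublet marked 0 WT and 7 KO cells (0.262%), under 0.5%, so it did not work and doublets largely remain.

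UMIs were summed per library and group of cells and given as CPM. With 1 library per genotype no test was made; intervals are exact Poisson (CPM), Clopper-Pearson (shares) and conditional binomial (ratios), all at 95%. Counts used genes with at least 5 CPM and a rule of 1.5-fold (gates, tags) or 20% lower and 25% higher (KO to WT). The CD150 limit (46.0 tag UMIs in WT and 99.4 in KO) came from a 2-component mixture, and the CD48 limit (1319 and 1989) from the 25th percentile, since the CD48 components lay 1.70 and 1.73 SD apart, under the 2 SD required. Clustering was Leiden at resolution 1.0 on 2000 variable genes, 30 components and 15 neighbours (scanpy 1.11.5), with the members left out. The interval code was checked on simulated data.

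The members, marker lists and other vessel-shared genes were chosen with earlier results of these data known. Named genes were the 10 members, checks of tags and label, the 2 highest and 2 lowest of each of the 4 kinds of other vessel-shared genes by the WT gate ratio, and the 3 genes most like each member with at least 20 CPM. Marker lists covered HSC, lymphoid, granulocyte-monocyte, megakaryocyte, erythroid, mast cell or basophil, eosinophil, B, T or NK, neutrophil, monocyte, hepatocyte, endothelial and stromal cells. Promoter windows came from RefSeq (GRCm38.p6). Alternatives concerned the cell limits, doublet scores, tag scaling, gate limits, free RNA, summing, the make-up by gate and CD201 tertile, and vessel cells.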

Additional observations from a re-analysis of the deposited data

Results flagged for a closer look

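Pecam1 and Egfl7 ran in opposite directions along CD201 in the 2 libraries. The log2 ratio of the highest to the lowest CD201 quintile was 0.39 in WT and -0.45 in KO for Pecam1, and 0.10 in WT and -0.13 in KO for Egfl7. With 1 library per genotype the difference between these ratios was not tested. Without erythroid-like cells, and with quintiles set again, the KO ratios were 0.08 for Pecam1 and 0.19 for Egfl7.

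Kdr, the VEGF receptor gene, differed in direction between gates. Its log2 ratio of KO to WT was -1.08 in CD150+CD48- cells and -1.31 in CD150-CD48- cells but 0.73 in CD150+CD48+ cells, and the difference between gates was not tested. It rests on 276 Kdr UMIs in WT and 158 in KO over all cells, of which the vessel cells held 17.0% and 4.43%, and in CD150+CD48- cells the ratio was -0.53 without them. Only 35 WT and 12 KO cells of that gate, vessel cells included, had a Kdr UMI.

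Tie1 and Kdr were more abundant in empty droplets, which the comparisons of cells did not use, than in cells of both libraries, beyond counting error in each. In droplets with 100 to 300 UMIs Tie1 stood at 16.6 CPM in WT and 15.1 in KO, against 9.79 and 8.91 CPM in cells. Kdr stood at 4.75 and 4.26 CPM there, against 1.95 and 1.51 CPM in cells. Cdh5 (4.75 CPM there against 0.467 in WT cells, and 1.24 against 0.412 in KO), Col4a2 (19.1 against 12.98, and 12.4 against 9.84) and Tek (8.26 against 4.53, and 4.43 against 4.32) were also higher there, with intervals that overlapped in KO.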

How the results depend on the processing

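The number of counted members at least 1.5-fold higher in CD150+CD48- than CD150-CD48+ cells was 5 in WT under every alternative run and 4 to 5 in KO; along CD201 it was 5 in WT throughout, while in KO it was 3 without cells holding 3 or more endothelial or stromal markers and 3 with a centred log ratio of tags. The number at least 20% lower in KO depended more on the processing. Over all cells (5 as reported) it was 2 after subtracting free RNA (6.65% of genes), 2 with a mean over cells and 0 without erythroid-like cells (1.01%). The number was 3 when the gates and CD201 tertiles of KO were weighted as in WT, a weighting that does not equalise the clusters. In CD150+CD48- cells (0) it was 1 without cells holding 3 or more such markers, 1 with a mean over cells and 2 with median-of-ratios scaling. It was 7 with tags as a share (15.5% of genes) and 7 with a centred log ratio (13.3%). In CD150-CD48- cells (7) it was 4 with a flat minimum of 1000 UMIs and 1 without erythroid-like cells (4.34% of genes). In CD150+CD48+ cells (5) it was 3 after subtracting free RNA, 3 with tags as a share and 2 without erythroid-like cells. In CD150-CD48+ cells (0) it was 1 with the flat minimum, 1 after subtracting free RNA (5.16% of genes), 3 without the marker-holding cells and 1 with median-of-ratios scaling. No share over all genes was computed for the flat minimum, the mean over cells, median-of-ratios scaling, the WT weighting or the marker-holding cells. Leaving out the marker-holding cells left 368 WT and 114 KO cells in the CD150+CD48- gate, from 517 and 169. Settings that leave out cells also set the gates and quintiles again; with the gates kept, leaving out erythroid-like cells gave 0 in CD150-CD48- and 2 in CD150+CD48+ cells. The cause of these differences was not tested. The free RNA profile came from droplets with 10 to 100 UMIs, where KO held only 2 Esam UMIs. For single members, the log2 ratio of KO to WT changed sign in 5 instances: Esam over all cells after subtracting free RNA (0.0086), Cdh5 in CD150+CD48- cells with a mean over cells (0.39), Cdh5 in CD150-CD48- cells with tags as a share (0.31), Pecam1 in CD150-CD48- cells without erythroid-like cells (0.23), and Col4a1 in CD150+CD48+ cells without erythroid-like cells (0.0176). Of the other values for single members, 933 stayed within their interval and 264 moved outside it. Leaving out erythroid-like or vessel cells and the mixture limit for CD48 were chosen after seeing the data. With 66 and 43 UMIs, the log2 ratio of KO to WT for Cdh5 over all cells had an interval of [-0.77, 0.40]. No paired analysis was possible because there is 1 library per genotype.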
